A study of Mus musculus with 6 samples.

Results

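Lysosome and endocytosis machinery, 53 genes that were chosen by name for what their products do, was followed in liver sinusoidal endothelial cells (LSECs) of Txnip-/- and WT mice. The 53 genes are 53 of the 23282 gene rows in the count tables, and all 53 passed the filter on low counts that left 11583 rows for testing. By role they are 8 cathepsins, 5 proteins of the lysosomal membrane, 11 hydrolases of glycans and sulfated sugars, 7 lipid hydrolases, activators and other lumenal proteins, 6 subunits of the proton pump, 3 MiT/TFE transcription factors, 8 genes of the clathrin coat and 5 genes of endosomes and sorting. No expression value was used to choose them, although earlier results of the same libraries were known when they were listed.

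RNA was sequenced from 3 libraries of LSECs of Txnip-/- mice and 3 of WT mice. The Txnip-/- mice lack TXNIP, an arrestin-like protein that binds thioredoxin and also takes part in the endocytosis of glucose transporters, in the whole body and not in endothelial cells alone, on a C57BL/6J background, and the WT mice were C57BL/6J. Both genotypes shared the whole isolation: collagenase perfusion of the liver, a density gradient, magnetic beads against CD146, and a microvascular endothelial medium in which LSECs were kept. The mouse colonies were kept on chow, and whether the mice behind these libraries received another diet is not stated. Age and sex at isolation are not given in the sources used here. Whether the sequenced RNA came from fresh or cultured cells, and whether each library is a separate mouse, is not given either. The p-values therefore set the difference between genotypes against the spread between these libraries, which may be technical.

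Endothelial cells of the liver sinusoid clear waste macromolecules from the blood. Receptors such as the stabilins bring cargo into clathrin-coated pits, early and late endosomes sort it, and lysosomes, kept acidic by the vacuolar proton pump, degrade it with cathepsins and other hydrolases. Many of the genes for lysosomal proteins are bound and activated by TFEB, TFE3 and MITF through a short palindrome near their start sites. Macrophages are also rich in lysosomes, and several lysosomal genes are expressed more strongly in them than in endothelial cells.

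To look for a sequence shared by some of the genes, the promoters of RefSeq on GRCm38.p6 were searched on both strands. Each ran from 250 bases before to 50 bases after its start site. A promoter was found for 45 of the 53 genes and not for Ctsb, Ctsh, Galns, Asah1, Atp6v1b2, Atp6v1h, Vps35 and M6pr. The core CACGTG was in the promoters of 14 of the 45 genes (31.1%) and in those of 8.09% of 27025 gene symbols, where a gene counts if any of its listed promoters holds the letters. TCACGTG, which contains that core, was in 11 of the 45 (24.4%) and in 4.29% of symbols, and the full palindrome TCACGTGA, which contains both, was in 7 of the 45 (15.6%) and in 1.12% of symbols. The 7 stretches below show that palindrome in capitals with 12 bases on either side, each 5′ to 3′ on the strand of its gene. They lie at chr2:164833748-164833779 (Ctsa, plus strand), chr7:142387907-142387938 (Ctsd, minus), chr8:3500461-3500492 (Mcoln1, plus), chr8:105566049-105566080 (Atp6v0d1, minus), chr16:44139372-44139403 (Atp6v1a, minus), chr17:53479126-53479157 (Rab5a, plus) and chrX:134601214-134601245 (Gla, minus).
Ctsa: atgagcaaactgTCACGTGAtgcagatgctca
Ctsd: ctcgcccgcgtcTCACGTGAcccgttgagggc
Mcoln1: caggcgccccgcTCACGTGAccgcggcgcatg
Atp6v0d1: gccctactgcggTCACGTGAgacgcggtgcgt
Atp6v1a: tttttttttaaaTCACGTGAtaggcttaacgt
Rab5a: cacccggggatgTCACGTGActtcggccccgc
Gla: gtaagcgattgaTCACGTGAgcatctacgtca
The first base of the printed palindrome lies between -228 bases (Gla) and -4 bases (Atp6v0d1) relative to the start site. Ctsa and Gla each hold 2 copies, of which only the first in the 5′ to 3′ direction is printed and placed. The 7 genes come from 5 roles: cathepsins, lysosomal membrane, glycan hydrolases, proton pump and endosomes. A match of letters describes the promoter and does not show that a factor binds there.

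The Txnip transcript had 269, 216 and 191 counts in Txnip-/- replicates 1, 2 and 3 and 1901, 2019 and 1994 counts in the WT replicates, so the genotypes were far apart in the targeted gene. Which part of Txnip was deleted is not given in the sources used here. Library totals were 9147764 to 10193952 counts in Txnip-/- LSECs and 9699159 to 9951078 in WT LSECs, and 3 counts, taken as the floor, equal 0.286 to 0.335 CPM. Levels are in CPM, counts scaled to a common library size with TMM factors, and because QuantSeq reads start at the 3′ end of a transcript a level does not grow with transcript length. WT replicate 3 stood apart from the other WT libraries: over the 53 genes its Euclidean distance in log2(CPM + 1) was 2.19 from WT replicate 1 and 2.47 from WT replicate 2, which were 1.51 from each other, the closest pair of the 6 libraries. The precursor of ribosomal RNA, Rn45s, took 17.8% of its counts against 10.03% and 9.68% in those libraries and 16.8% to 18.6% in the Txnip-/- libraries. By the same distance, Txnip-/- replicate 2 was nearer to WT replicate 1 (2.08) than to Txnip-/- replicates 1 (2.16) and 3 (2.15). The distances over the 53 genes thus did not fully separate the genotypes. The endothelial genes Pecam1 and Cdh5 were abundant in both genotypes, with Pecam1 at 934 ± 142 CPM in WT and 885 ± 62.8 CPM in Txnip-/- LSECs and Cdh5 at 1101 ± 103 and 1069 ± 87.7 CPM (mean ± SD, n = 3). All 12 LSEC markers examined had negative fold changes, within 0.2 of 0 on the log2 scale for 6 of them. The test called 2 of the 12 lower in Txnip-/- libraries, Stab1 and Mrc1. Stab1, the scavenger receptor stabilin-1, was at 272, 242 and 247 CPM in Txnip-/- against 328, 345 and 375 CPM in WT LSECs. Mrc1, the mannose receptor, was at 72.5 ± 3.29 against 123 ± 13.4 CPM. Stab2, for the receptor related to stabilin-1 that takes up hyaluronan, had a log2 fold change of -0.36 with an adjusted p of 0.0448 by edgeR, under the fold limit. Whether Stab1 and Mrc1 transcripts came from LSECs alone was not tested.

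Transcripts of other liver cells were also measurable in these libraries. Of 16 macrophage and Kupffer cell markers 14 were tested, all 14 had lower levels in each Txnip-/- library than in any WT library, and 13 of them passed the test, with a median log2 fold change of -1.48. Their summed level was 330 to 366 CPM in the Txnip-/- libraries and 817 to 855 CPM in the WT libraries, and none of the 16 was at 0 in all 6 libraries. Marco, a scavenger receptor of Kupffer cells, was at 83.2 ± 7.12 CPM in Txnip-/- and 175 ± 3.86 CPM in WT LSECs, and Cd163, the haemoglobin scavenger receptor, at 13.3 ± 0.354 and 55.9 ± 3.71 CPM. In bulk libraries fewer cells of a type and less RNA per cell cannot be told apart. Stellate cell markers summed to 38.1 to 49.3 CPM in Txnip-/- and 22.1 to 25.2 CPM in WT libraries, hepatocyte markers to 57.6 to 66.8 and 54.4 to 55.8 CPM, and markers of neutrophils and lymphocytes stayed under 2 CPM with 3 of the 5 measured and 5 of 7 of them at 0 throughout. Xist, the long RNA that silences an X chromosome, was at 277 to 310 CPM in Txnip-/- and 369 to 458 CPM in WT libraries, and the Y-linked Ddx3y, Eif2s3y and Kdm5d were at 0 in all 6. Uty, also Y-linked, had 1 count in WT replicate 1 and 0 in every other library. Each library thus showed the pattern of female cells. The part of these other cells in the results for lysosomal genes was not tested.

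Among the 53 genes, 1 passed the test in Txnip-/- against WT LSECs at the limits set, a fold change of more than 1.3 with an adjusted p below 0.05, and it was lower: Lipa, lysosomal acid lipase. That is 1.89% of the 53 genes, beside 1.44% of all 11583 genes tested in either direction, 0.932% called lower and 0.509% called higher. At the adjusted p alone, Ctsb (cathepsin B) joined it, for 2 of 53 genes beside 1.55% of all genes. The share called was thus near that of all genes, whereas the direction leaned to one side. The log2 fold change was negative for 38 genes and positive for 15 (71.7% negative, against 50.004% of all genes tested), with a median of -0.11, an interquartile range from -0.25 to 0.01 and extremes of -0.75 (Ctsc) and 0.32 (Galns). The median of all genes tested was 0.00, with an interquartile range from -0.18 to 0.16.

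Without adjustment for multiple testing, 14 of the 53 genes had a p under 0.05 (26.4%), beside 11.5% of all genes. They were 13 lower genes (24.5%, beside 6.05% of all genes) and 1 higher gene (1.89%, beside 5.48%). The 3 Txnip-/- libraries did not overlap the 3 WT libraries for 16 genes, all of them lower in Txnip-/- LSECs, which is 30.2% of the 53 genes. Among all genes tested, 17.4% did not overlap, 8.94% lower and 8.43% higher. The 53 genes are measured more precisely than most, with a median SE of 0.11 on the log2 scale against 0.19 for all genes, and so the shares were also taken among genes averaging 100 CPM or more. There, 22 of 26 lysosome and endocytosis genes had a negative fold change (84.6%) against 46.5% of 1863 genes, 11 of 26 (42.3%) did not overlap and were lower against 9.45%, and 8 of 26 (30.8%) were lower at an unadjusted p under 0.05 against 7.78%. By the adjusted p and fold limits in edgeR, however, 0 of these 26 genes were called lower, against 1.66% of the 1863 (31 genes). Among genes averaging 20 CPM or more, the shares were nearer to those over all levels, with 33 of 45 genes (73.3%) negative against 48.6% of 6239. Of the 45, 16 (35.6%) did not overlap and were lower against 9.10%, and 11 (24.4%) were lower at an unadjusted p under 0.05 against 6.60%. Called lower was 1 of the 45 (2.22%) against 1.07%. Most changes were small, with 35 of the 53 genes at a log2 fold change within 0.2 of 0, beside 6552 of all 11583 genes tested. WT replicate 3 was the library with the highest level for 20 of the 53 genes, WT replicates 1 and 2 for 8 and 11, and the Txnip-/- replicates for 5, 3 and 6. Without WT replicate 3 the median log2 fold change of the 53 genes was -0.064. In that comparison of 3 against 2 libraries 19 of the 53 genes (35.8%) did not overlap and were lower in Txnip-/- LSECs, beside 16.4% of 11922 genes, and 2 (3.77%) were higher, beside 15.3%.

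**Figure D1:**
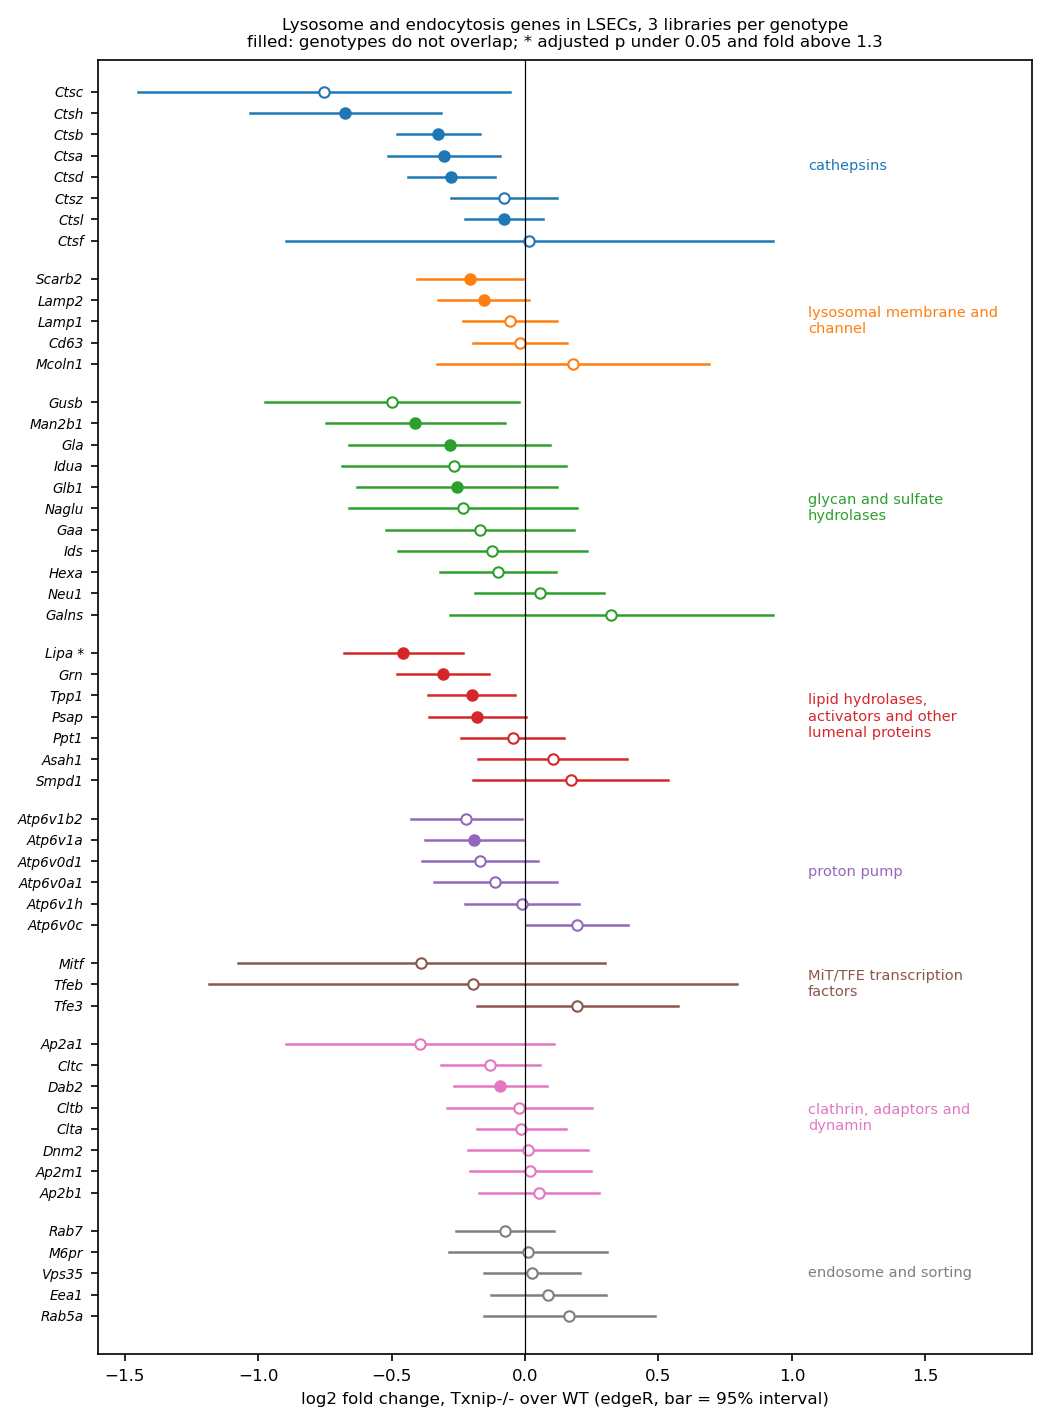
Log2 fold change of each of the 53 genes, Txnip-/- over WT, by role, as points with 95% intervals from edgeR. Filled points mark the 16 genes whose 3 Txnip-/- and 3 WT libraries did not overlap, all of them left of 0, and the asterisk marks Lipa, the 1 gene that passed the adjusted p and fold limits.

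In the forest of fold changes the cathepsins, hydrolases and lumenal proteins lie mostly left of 0, and the clathrin and endosome genes lie close to it. Summed over the 53 genes, the level was 13817, 13275 and 13646 CPM in Txnip-/- replicates 1, 2 and 3 and 14439.8, 14567 and 15460.2 CPM in the WT replicates, so each Txnip-/- library was below each WT library. The most abundant genes weigh most in such a sum.

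**Figure D2:**
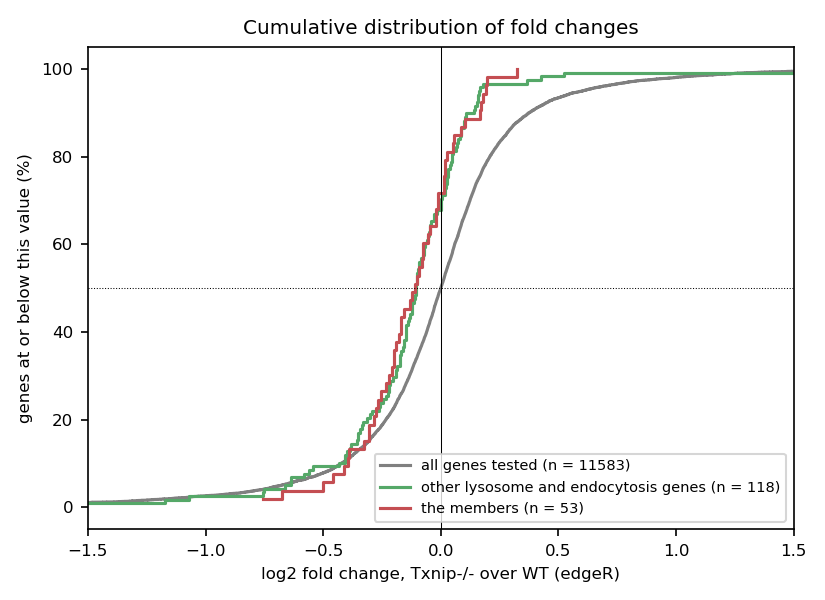
Cumulative distribution of the log2 fold change, Txnip-/- over WT, for the 53 genes, 118 other lysosome and endocytosis genes and all 11583 genes tested, with the share of genes at or below each value on the vertical axis. The curves of the 53 and the 118 genes lie to the left of that of all genes around the middle, crossing 50% at -0.11 and -0.10 against 0.00.

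The cathepsins, the main proteases of the lysosome, had the lowest group median of the 8 roles, a log2 fold change of -0.29. Of the 8 genes, none passed the adjusted p and fold limits and 7 had a negative fold change. There were 5 lower at an unadjusted p under 0.05, beside 6.05% of all genes, and 5 that did not overlap, all lower, beside 8.94%. The summed level of the 8 cathepsins was 3521, 3663 and 3654 CPM in Txnip-/- replicates 1, 2 and 3 and 4207, 4089 and 4338 CPM in the WT replicates, or 3613 ± 79.5 against 4211 ± 124.7 CPM (SD, n = 3). The Txnip-/- sum was 0.858 times the WT sum, and the genotypes were separate. Ctsd, Ctsl and Ctsb weigh most in this sum, at 1566, 1290 and 994 CPM in WT LSECs, against 163 CPM for Ctsa, the next. Cathepsin B, encoded by Ctsb at chr14:63122462-63145923 on the plus strand of GRCm38, is a cysteine protease with endopeptidase and carboxypeptidase activity. It was at 763, 805 and 812 CPM in Txnip-/- replicates 1, 2 and 3 and 1038, 989 and 956 CPM in the WT replicates. Every Txnip-/- library was lower, the genotypes did not overlap, and the log2 fold change was -0.33 (SE 0.074, adjusted p = 0.0319 by edgeR's quasi-likelihood test with Benjamini-Hochberg adjustment), a fold of 1.25 that lies under the limit of 1.3. With the replicate number as a block, the adjusted p of Ctsb was 0.132. Without WT replicate 3 it was 0.00181, and without any one of the other 5 libraries it lay between 0.109 and 0.210. The 3′ end of Ctsb overlaps that of Fdft1 on the opposite strand, and without strand in the counting their reads cannot be told apart. Fdft1, squalene synthase, was counted at 36.3 ± 5.89 CPM in Txnip-/- and 44.6 ± 1.79 CPM in WT LSECs, far below Ctsb.

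Ctsd encodes cathepsin D, the main aspartic protease of lysosomes, at chr7:142375911-142388038 on the minus strand. Its level was 1293, 1293 and 1294 CPM in Txnip-/- replicates 1, 2 and 3 and 1500.3, 1449 and 1748 CPM in the WT replicates. The Txnip-/- libraries lay within 1 CPM of each other and below every WT library, of which WT replicate 3 was the highest. The log2 fold change of Ctsd was -0.28 (SE 0.078, adjusted p = 0.104 by edgeR), and it was -0.19 without WT replicate 3. One alternative fit gave WT replicates 1 and 2 a term of their own. It compares the Txnip-/- libraries with WT replicate 3 alone, assumed to vary like the others, and its values for the genes below rest on that 1 WT library.

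Ctsh encodes cathepsin H, an aminopeptidase that is also active in the lung surfactant pathway, at chr9:90054152-90076089 on the plus strand. Ctsh was at 22.2, 19.9 and 21.6 CPM in the Txnip-/- replicates and 36.0, 37.8 and 27.7 CPM in the WT replicates, with no overlap. Its log2 fold change of -0.67 (SE 0.17) missed the threshold in edgeR (adjusted p = 0.0585) and passed it without WT replicate 3 (-0.80, adjusted p = 0.0110), and DESeq2 gave it an adjusted p of 0.0237 with all 6 libraries. The adjusted p of Ctsh by edgeR was 0.148 to 0.358 without any one of the other 5 libraries, 0.118 with the replicate number as a block and 0.453 with the term for WT replicates 1 and 2 (log2 -0.38). Ctsa encodes cathepsin A, a carboxypeptidase that also shields beta-galactosidase and neuraminidase in a complex, and was at 117, 144 and 134 CPM in Txnip-/- and 157, 163 and 168 CPM in WT LSECs. The genotypes did not overlap, and the log2 fold change of Ctsa was -0.30 (SE 0.10, adjusted p = 0.190 by edgeR). Its 3′ end overlaps Pltp on the opposite strand, and Pltp, the phospholipid transfer protein, had levels of 101 ± 12.4 CPM in Txnip-/- and 133 ± 5.25 CPM in WT LSECs that did not overlap either, so without strand the counts of the pair cannot be told apart. Ctsc, which encodes the dipeptidyl peptidase that activates serine proteases of leukocytes, was low, at 6.14, 14.4 and 6.84 CPM in Txnip-/- and 19.7, 17.1 and 9.41 CPM in WT LSECs. Txnip-/- replicate 2 lay above WT replicate 3, so the genotypes overlapped although the fold change of Ctsc was the most negative of the 53 (log2 -0.75, SE 0.33, adjusted p = 0.384 by edgeR). The value for Ctsc ranged from -1.25 without Txnip-/- replicate 2 to -0.54 without Txnip-/- replicate 1, was -1.01 without WT replicate 3, and was -0.041 with the term for WT replicates 1 and 2. Ctsl, for cathepsin L, did not overlap by a narrow margin, at 1222 ± 46.8 against 1290.00 ± 8.73 CPM, with a log2 fold change of -0.078 (SE 0.069). Ctsz and Ctsf, the remaining cysteine cathepsins, overlapped, at log2 fold changes of -0.079 and 0.016, and the 95% interval of Ctsf, from -0.90 to 0.93, allows a change in either direction.

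**Figure D3:**
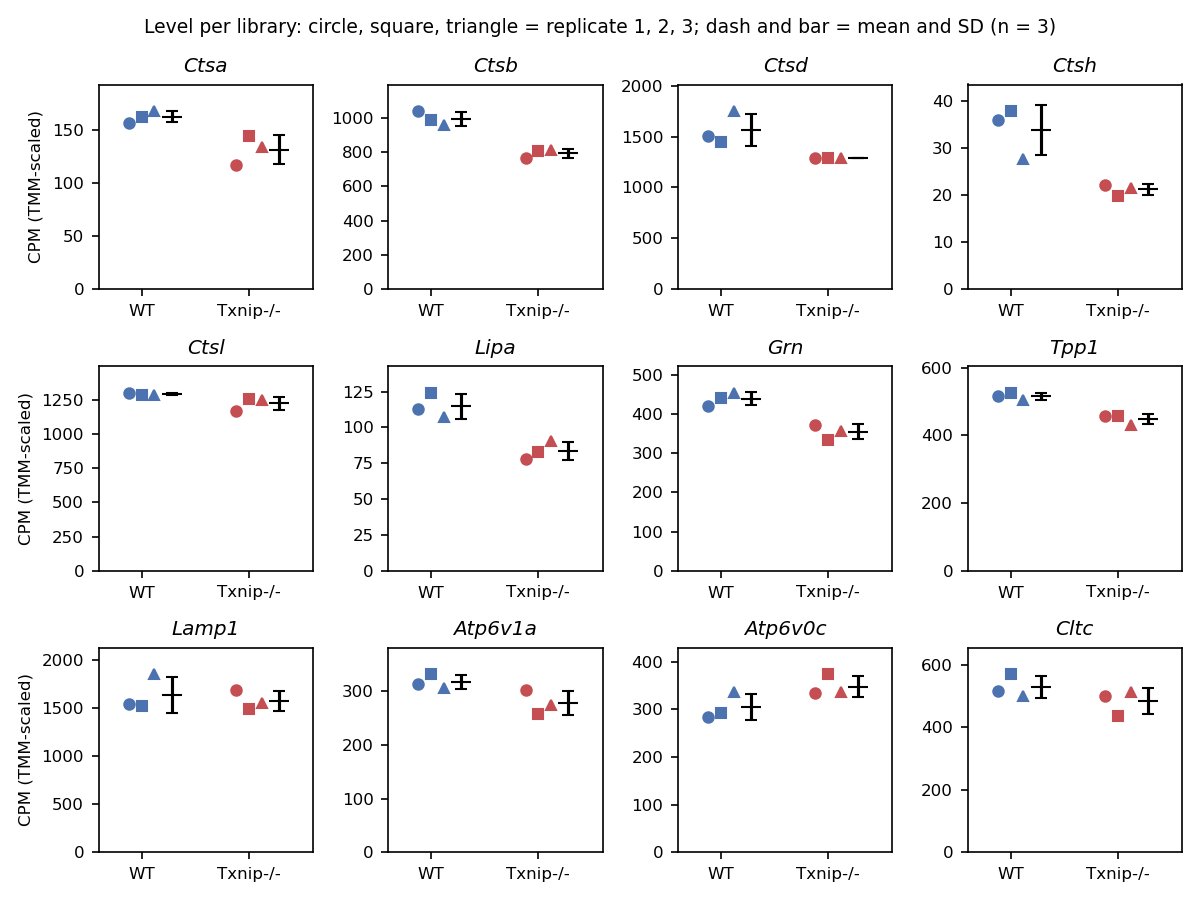
Level in CPM (TMM-scaled counts, linear axis from 0) of 12 of the 53 genes in each library; circle, square and triangle are replicates 1, 2 and 3, and the dash with its bar is the mean and SD of 3 libraries. Ctsa, Ctsb, Ctsd, Ctsh, Ctsl, Lipa, Grn, Tpp1 and Atp6v1a show separate genotypes, while Lamp1, Atp6v0c and Cltc overlap.

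Among the 7 lipid hydrolases, activators and other lumenal proteins, 1 fell (Lipa) and 6 did not pass the test, with 5 negative and 2 positive fold changes and a group median of -0.18. There were 4 genes that did not overlap, all lower, beside 8.94% of all genes. Lipa encodes the acid lipase that frees cholesterol and fatty acids from the lipids of endocytosed lipoproteins, and lies at chr19:34492318-34527474 on the minus strand. It was at 77.8, 83.0 and 90.3 CPM in Txnip-/- replicates 1, 2 and 3 and 113, 124 and 107 CPM in the WT replicates, or 83.7 ± 6.29 against 115 ± 8.66 CPM (mean ± SD, n = 3). All 3 Txnip-/- libraries were below the lowest WT library, WT replicate 3. The log2 fold change of Lipa was -0.46 (SE 0.11, 95% interval -0.68 to -0.23, adjusted p = 0.0380 by edgeR's quasi-likelihood test), a level 1.37 times as high in WT. The call was lost without any one of 5 libraries and kept without WT replicate 3: the adjusted p of Lipa was 0.182, 0.139 and 0.0660 without Txnip-/- replicates 1, 2 and 3, 0.154 and 0.271 without WT replicates 1 and 2, and 0.0103 without WT replicate 3, with log2 fold changes from -0.52 to -0.40. It was 0.103 with the replicate number as a block and 0.216 with a term for WT replicates 1 and 2. The promoter of Lipa is printed whole because it is the gene that passed the test and, unlike 14 of the 45 promoters, it holds no CACGTG. It spans chr19:34527425-34527724 of GRCm38.p6, minus strand, 5′ to 3′ from 250 bases before to 50 after the RefSeq start site, in lower case throughout since the motif is not in it.
Lipa: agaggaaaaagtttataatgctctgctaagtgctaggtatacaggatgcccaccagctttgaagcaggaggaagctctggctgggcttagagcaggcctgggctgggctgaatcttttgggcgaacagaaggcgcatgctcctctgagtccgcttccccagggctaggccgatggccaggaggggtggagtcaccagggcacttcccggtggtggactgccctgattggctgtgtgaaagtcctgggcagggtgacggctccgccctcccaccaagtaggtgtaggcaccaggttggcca

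The promoter of Ctsd, for comparison, spans chr7:142387778-142388077, minus strand, with its 2 stretches that hold CACGTG in capitals, the second of them the full palindrome TCACGTGA.
Ctsd: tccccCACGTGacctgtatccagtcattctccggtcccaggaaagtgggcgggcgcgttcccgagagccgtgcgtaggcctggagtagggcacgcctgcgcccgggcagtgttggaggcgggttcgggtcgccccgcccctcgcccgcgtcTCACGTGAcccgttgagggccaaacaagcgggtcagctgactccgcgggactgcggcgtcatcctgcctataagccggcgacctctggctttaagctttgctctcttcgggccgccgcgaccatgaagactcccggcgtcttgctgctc
The 2 promoters have GC contents of 59.3% (Lipa) and 67.3% (Ctsd). Over the 7 genes with TCACGTGA the median log2 fold change was -0.19, with a range from -0.30 (Ctsa) to 0.18 (Mcoln1), and over the 38 genes without it the median was -0.11. The genotypes did not overlap for 4 of those 7 genes and 10 of those 38, all of them lower, beside 8.94% of all genes tested. Ctsb and Ctsh, which did not overlap either, had no promoter and are in neither count. A difference between genes with and without the motif was not tested. Among the other lysosome and endocytosis genes, 8 of the 94 with a promoter held TCACGTGA (8.51%). The shorter TCACGTG was in 19 of these 94 (20.2%) and the core CACGTG in 20 (21.3%).

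Grn encodes progranulin, which lysosomal proteases cut into granulins. Grn was at 372, 334 and 357 CPM in Txnip-/- and 421, 440.3 and 454 CPM in WT LSECs. The genotypes did not overlap, and the log2 fold change of -0.31 (SE 0.082) missed the threshold in edgeR (adjusted p = 0.0807). Tpp1, tripeptidyl peptidase 1, was at 458, 457 and 430.4 CPM against 516, 526 and 503 CPM, separate in every library, with a log2 fold change of -0.20 (SE 0.077, adjusted p = 0.301 by edgeR). Psap, the precursor of the saposins that present sphingolipids to their hydrolases, was at 1341, 1055 and 1271 CPM against 1345, 1350.4 and 1454 CPM. Txnip-/- replicate 1 came close to WT replicate 1, and the log2 fold change of Psap was -0.18 (SE 0.086, adjusted p = 0.443 by edgeR). The acid ceramidase Asah1, the acid sphingomyelinase Smpd1 and the palmitoyl thioesterase Ppt1 overlapped between genotypes, with log2 fold changes of 0.10, 0.17 and -0.047. Thus the 2 sphingolipid hydrolases of the group had positive fold changes that did not pass the test.

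The 11 hydrolases of glycans and sulfated sugars were expressed at lower levels, with a sum of 488.5, 516.8 and 524.2 CPM in the Txnip-/- replicates and 547.9, 564.5 and 582.4 CPM in the WT replicates. The genotypes were separate in this sum, and the group median was a log2 fold change of -0.23, with 9 negative and 2 positive values. None of the 11 passed the adjusted p and fold limits. There were 2 lower at an unadjusted p under 0.05, beside 6.05% of all genes, and 3 that did not overlap, all lower, beside 8.94%. Man2b1, the alpha-mannosidase of glycan breakdown in lysosomes, was at 25.8, 33.3 and 35.1 CPM in Txnip-/- and 36.3, 46.4 and 42.6 CPM in WT LSECs. The highest Txnip-/- library, replicate 3, was just under the lowest WT library, and the log2 fold change of Man2b1 was -0.41 (SE 0.16, adjusted p = 0.303 by edgeR). Gusb, the beta-glucuronidase of glycosaminoglycan breakdown, was at 23.0, 12.8 and 13.7 CPM against 23.0, 26.2 and 20.7 CPM. Txnip-/- replicate 1 was as high as WT replicate 1, so Gusb overlapped (log2 -0.50, SE 0.23, adjusted p = 0.402 by edgeR). Hexa, the alpha subunit of beta-hexosaminidase and the most abundant of the 11, was at 184, 228 and 224 CPM against 221, 211 and 251 CPM and overlapped (log2 -0.10, SE 0.10). Glb1 (beta-galactosidase) and Gla (alpha-galactosidase A) did not overlap, at log2 fold changes of -0.25 and -0.28 with adjusted p of 0.646 and 0.599 by edgeR. Gaa, Idua, Ids and Naglu, which degrade glycogen, dermatan and heparan sulfate, had values between -0.27 (Idua) and -0.12 (Ids) and overlapped. The neuraminidase Neu1 and the sulfatase Galns had positive values, 0.055 and 0.32, and overlapped as well. The 95% interval of Galns ran from -0.28 to 0.93.

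The lysosomal membrane proteins differed less, with a group median of -0.056 and 0 of 5 called. Lamp1, a heavily glycosylated protein of the limiting membrane and the most abundant of the 53 genes, was at 1683, 1485 and 1549 CPM in Txnip-/- and 1536, 1519.5 and 1848 CPM in WT LSECs. WT replicate 3 was the highest library and Txnip-/- replicate 1 the next, so the genotypes overlapped, and the log2 fold change of Lamp1 was -0.056 (95% interval -0.23 to 0.12). Scarb2, which carries beta-glucocerebrosidase to lysosomes, was at 129.6, 136.6 and 125.3 CPM against 144, 149 and 159 CPM. Scarb2 did not overlap, and its log2 fold change was -0.21 (SE 0.094, adjusted p = 0.409 by edgeR). Lamp2, which also serves chaperone-mediated autophagy, did not overlap either (401 ± 20.3 against 447 ± 20.7 CPM, log2 -0.16, adjusted p = 0.489 by edgeR). The tetraspanin Cd63 overlapped at -0.019, and its last 500 bases are near-identical to a pseudogene, Cd63-ps, so its counts could hold reads of the copy. The calcium channel Mcoln1 was low (13.9 ± 1.36 against 12.3 ± 3.03 CPM) and overlapped at 0.18.

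Of the 6 subunits of the vacuolar proton pump none was called, 5 had negative fold changes, and the summed level was 1147 ± 46.2 CPM in Txnip-/- and 1198 ± 55.8 CPM in WT LSECs. Atp6v1a, the catalytic subunit that hydrolyses ATP, was at 300.5, 256 and 274 CPM in Txnip-/- and 312, 331 and 305 CPM in WT LSECs, with no overlap and a narrow gap between Txnip-/- replicate 1 and WT replicate 3. Its log2 fold change was -0.19 (SE 0.088, adjusted p = 0.422 by edgeR). Atp6v1b2, the partner subunit in the ATP-binding ring, was at 199, 170.1 and 169.6 CPM against 199, 229 and 199 CPM. Txnip-/- replicate 1 reached WT replicate 1, and the log2 fold change of Atp6v1b2 was -0.22 (SE 0.10, adjusted p = 0.396 by edgeR). Atp6v0c, which forms the proton-carrying ring in the membrane, was the 1 gene of the 53 with a positive fold change at an unadjusted p under 0.05. It was at 333, 373 and 336 CPM against 285, 292 and 335 CPM, WT replicate 3 lay among the Txnip-/- libraries, and its log2 fold change was 0.19 (SE 0.091, adjusted p = 0.428 by edgeR). The subunits Atp6v0a1, Atp6v0d1 and Atp6v1h overlapped, at -0.11, -0.17 and -0.011. None of the 6 subunits passed the adjusted threshold.

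The MiT/TFE factors, which drive transcription of lysosomal genes, overlapped in all 3 cases. Tfe3, the most abundant, was at 32.3, 39.9 and 51.5 CPM in Txnip-/- and 29.0, 38.3 and 40.7 CPM in WT LSECs, with log2 0.20 (SE 0.18, adjusted p = 0.761 by edgeR). Mitf was at 7.93, 6.22 and 6.41 CPM against 8.86, 5.62 and 12.5 CPM (-0.39, SE 0.33), and Tfeb at 3.01, 4.69 and 3.42 CPM against 3.99, 2.57 and 6.24 CPM (-0.20, SE 0.47). Mitf and Tfeb ranged widely between WT replicates, WT replicate 3 being the highest for both. The 95% intervals ran from -1.07 to 0.30 for Mitf and from -1.19 to 0.79 for Tfeb, so a change of moderate size was not detectable at these levels, and RNA does not measure the nuclear entry by which these factors are controlled.

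Genes of the clathrin coat and its adaptors had a group median of -0.018, with 5 negative and 3 positive values and none of the 8 at an unadjusted p under 0.05. Cltc, the clathrin heavy chain, was at 501, 435 and 512 CPM in Txnip-/- and 516, 569 and 500.1 CPM in WT LSECs, overlapping, with a log2 fold change of -0.13 (SE 0.088, 95% interval -0.32 to 0.054). The light chains Clta and Cltb were at 429.5 ± 13.7 against 434 ± 17.0 CPM and 69.6 ± 8.78 against 70.6 ± 9.18 CPM, with log2 fold changes of -0.014 and -0.021. Ap2a1, the alpha subunit of the AP-2 adaptor that links cargo to clathrin, was the lowest of the 8, at 11.8, 17.4 and 11.0 CPM against 15.2, 21.9 and 15.9 CPM, and overlapped (log2 -0.39, SE 0.24, adjusted p = 0.573 by edgeR). The other AP-2 subunits Ap2b1 and Ap2m1 lay at 0.052 and 0.019, and the membrane-cutting GTPase Dnm2 at 0.012. Dab2, an adaptor for lipoprotein receptors, did not overlap by a narrow margin, 255 ± 1.601 against 272 ± 9.35 CPM (log2 -0.092, adjusted p = 0.754 by edgeR).

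The endosome and sorting genes were the 1 role of the 8 with a positive median, a log2 fold change of 0.025, with 4 positive values and 1 negative. Eea1, which tethers early endosomes, was at 276, 264 and 337 CPM in Txnip-/- and 296, 278 and 252 CPM in WT LSECs and overlapped (log2 0.087, SE 0.10). Rab5a, the GTPase of early endosomes, was at 29.3, 35.8 and 34.0 CPM against 29.5, 29.6 and 29.2 CPM, with Txnip-/- replicate 1 inside the narrow WT range, and a log2 fold change of 0.17 (SE 0.15, adjusted p = 0.761 by edgeR). Rab7 of late endosomes, the retromer subunit Vps35 and the mannose 6-phosphate receptor M6pr, which brings hydrolases to endosomes, lay at -0.075, 0.025 and 0.012, all overlapping. Vps35 was among the more precisely measured of them, with a 95% interval from -0.15 to 0.20.

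**Figure D4:**
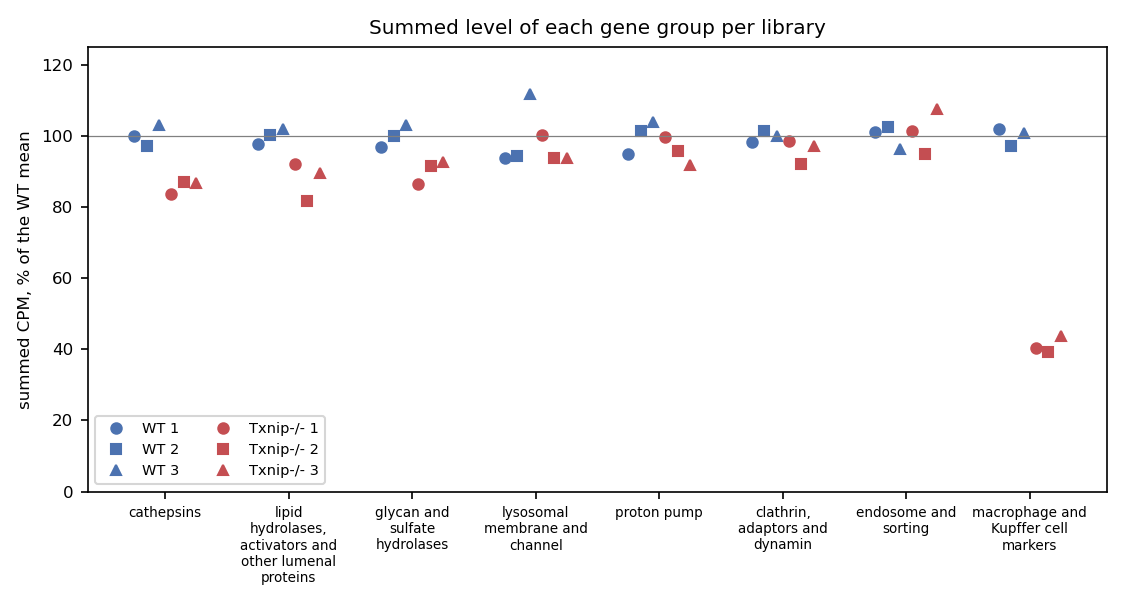
Summed CPM of each group of genes per library, as a percentage of the mean of the 3 WT libraries, for 7 of the 8 roles and for 16 macrophage and Kupffer cell markers. The Txnip-/- libraries lie below every WT library for the cathepsins, the lipid hydrolases and other lumenal proteins, the glycan hydrolases and, by far the most, the macrophage markers, and overlap the WT libraries for the other 4 groups.

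The plot of group sums sets the size of these differences beside that of the macrophage markers. The macrophage sum in Txnip-/- libraries was 41.1% of the WT mean, against 85.8% for the cathepsins, 87.7% for the lipid hydrolases and other lumenal proteins and 90.2% for the glycan hydrolases. In CPM, the mean sum of the cathepsins was 599 lower in Txnip-/- than in WT LSECs and that of the macrophage markers 495 lower. The 12 LSEC markers summed to 4688 to 5113 CPM in Txnip-/- and 5413 to 7187 CPM in WT libraries, 75.4% of the WT mean or 1612 CPM lower. Much of that difference lies in Lyve1, the most abundant of the 12, at 1698 ± 255 CPM in Txnip-/- and 2927 ± 1228 CPM in WT LSECs. Lyve1 overlapped between genotypes, since WT replicate 3 was at 1520 CPM against 3482 and 3780 CPM in WT replicates 1 and 2. The part of macrophage RNA and of the lower LSEC marker levels in the lower cathepsin and hydrolase levels was not tested.

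Beyond the 53 genes, 122 further genes of lysosomes, the pump, coats, sorting and endosomes were listed, again with earlier results known, and 118 were tested. Of these, 4 passed the test (3.39%, beside 1.44% of all genes), and all 4 were lower in the Txnip-/- libraries. There were 81 negative and 37 positive fold changes, and the median was -0.10. Ctss, cathepsin S of antigen-presenting cells, was at 16.3, 16.9 and 19.0 CPM in Txnip-/- and 55.6, 56.2 and 64.6 CPM in WT LSECs, with log2 -1.75 (SE 0.15, adjusted p = 1.70e-06 by edgeR). Laptm5, a lysosomal protein of blood cells, was at 11.8, 11.6 and 9.52 against 25.7, 26.4 and 22.2 CPM (-1.17, SE 0.20, adjusted p = 0.00343 by edgeR). Cd68, a lysosomal membrane protein abundant in macrophages, was at 33.9, 38.9 and 41.6 against 68.0, 63.3 and 61.8 CPM (-0.75, SE 0.13, adjusted p = 0.00351 by edgeR). In these 3 genes every Txnip-/- library lay well below every WT library. Ctss and Cd68 are also 2 of the 16 macrophage markers. The share of 3.39% thus rests in part on genes that are in both lists. Which cells these transcripts came from was not tested.

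Lgmn, legumain, the asparaginyl endopeptidase that processes several cathepsins, was at 94.0, 102 and 103 CPM in Txnip-/- and 130.4, 135 and 132 CPM in WT LSECs, with no overlap. Its log2 fold change of -0.41 (SE 0.10, adjusted p = 0.0402 by edgeR) was close to that of Lipa in size. The adjusted p of Lgmn was 0.0251 without WT replicate 3, from 0.111 to 0.218 without any one of the other 5 libraries, 0.115 with the replicate number as a block and 0.113 with the term for WT replicates 1 and 2, a term that also left Laptm5 at 0.0573. By role, the other cathepsins and inhibitors had 4 of 6 negative fold changes (median -0.20), from -1.75 (Ctss) to 1.897 (Ctsk), and a summed level at 101.6% of the WT mean, the further hydrolases and helpers had 17 of 19 negative (-0.19), the further membrane proteins 13 of 16 (-0.13), the trans-Golgi sorting genes 10 of 15 (-0.14), the further pump subunits 8 of 12 (-0.082), the coat genes 11 of 17 (-0.070), the endosome, retromer and ESCRT genes 11 of 20 (-0.048) and the genes that control TFEB, with the Ragulator, folliculin and mTOR, 7 of 13 (-0.018). In both the 53 genes and the further genes, the hydrolase groups had medians below -0.15 and the endosome groups medians within 0.05 of 0.

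All 53 genes were placed on GRCm38 by GENCODE M21, on 17 chromosomes with 4 of them on X (Lamp2, Gla, Ids and Tfe3). In 9 of them an exon of a gene on the opposite strand lies within the last 500 bases, where QuantSeq reads fall: Ctsa, Ctsb, Ctsz, Lamp1, Ppt1, Grn, Ap2a1, Dnm2 and Rab5a. Whether strand was used in the counting is not given in the sources used here. Of the 2 genes with an adjusted p under 0.05, Lipa has no such neighbour, whereas Ctsb has one. Ap2m1 shares a stretch of up to 162 bases with transcripts of 16 other genes, so reads with several alignments could add to it.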

How the data were processed

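LSEC RNA of 3 Txnip-/- and 3 WT libraries was measured by QuantSeq 3′ sequencing (single-end). The authors used Bowtie2 for alignment and bedtools for counting, in which reads with 1 or with several alignments were both counted. The submitters' processing notes name build mm10, and tool versions, annotation and use of strand are not given in the sources used here. The deposited values are whole-number counts for 23282 rows, 44 of which repeat a symbol and were kept apart. No molecular identifiers are named, so the floor of 3 counts covers counting error only.

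In R 4.3.3, edgeR 4.0.16 was run with filterByExpr (11583 rows), TMM factors and glmQLFTest on a model of genotype alone, and p-values were adjusted over all rows tested by Benjamini-Hochberg. SEs were derived from the fold change and the F statistic. Calls needed a fold change of more than 1.3 and an adjusted p below 0.05. The study states its limit as a log fold change above 1.3, so a log2 limit of 1.3 was an alternative. The members and lists were chosen with earlier results of these data known, so counts over them describe and do not test. Every member could be named. Values per library are given for called members, those with an unadjusted p under 0.05, and the most abundant and the smallest p of each role. Of the further genes the rule names those called, and the uncalled ones that are named lie outside that rule.

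Alternatives were DESeq2 1.42.0, limma-trend 3.58.1 (prior count 2), RLE, upper quartile or no factors, 2 filters, Rn45s left out, a replicate block, a term for WT replicates 1 and 2, each library left out, and 3 call rules. Over all genes tested, same-numbered libraries did not deviate together (correlations -0.025, 0.011 and -0.061). Counting error also enters these deviations, so the values cannot exclude that the numbers pair libraries, and the replicate block is given as an alternative. Promoters are those of RefSeq (GRCm38.p6), positions those of GENCODE M21, and near-identical transcripts were sought with blastn 2.17.0. Scripts were tested on simulated data.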

Additional observations from a re-analysis of the deposited data

How the results depend on the processing

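The number of the 53 genes called was 1 (Lipa) and stayed 1 with RLE or upper quartile factors, the stricter filter, limma-trend or Rn45s left out. It was 4 with no normalization factors (Ctsb, Ctsh, Lipa and Grn), 2 with no filter and 2 with DESeq2 (Ctsh and Lipa in both), 2 by the adjusted p alone, 14 by the unadjusted p and 0 at a log2 limit of 1.3. With the replicate block, where edgeR still gave 10 of the 53 an unadjusted p under 0.05, it was 0, and with each library left out 0 to 2. A term for WT replicates 1 and 2 leaves WT replicate 3 as the single WT library compared, assumed to vary like the others. It gave 1 call, Ctsd in place of Lipa, which rests on that library, the highest of the 6 for Ctsd. Over all genes the number called was 167, and 301, 252, 108, 57 and 1336 with no filter, DESeq2, the block, the log2 limit and the unadjusted p, and 89 to 301 with each library left out, the 301 being without WT replicate 3. With no normalization factors 180 genes were called, 35 higher and 145 lower, against 59 and 108, and the median of all genes moved by -0.082. Of the 118 further genes 4 were called, and 8, 7, 2, 1 and 23 with no filter, DESeq2, the WT term, the log2 limit and the unadjusted p, and 3 to 9 with each library left out. With the WT term those called were Ctss and Cd68. The median log2 fold change of the 53 was -0.19 with no factors, -0.14 with the WT term and -0.14 to -0.064 with each library left out. In 28 of the 53 genes the fold change was negative in all 16 alternatives and in 5 positive. Signs turned with no factors for Ctsf (-0.074), Neu1 (-0.029), Ap2b1 (-0.033), Ap2m1 (-0.065), Dnm2 (-0.067), Vps35 (-0.058) and M6pr (-0.073), with limma-trend for Ctsf (-0.069), with the block for Ctsf (-0.055), and with the WT term for Idua (0.24) and Dnm2 (-0.12). Leaving out each library in turn gave Ctsf -0.27 to 0.33, Lamp1 -0.11 to 0.041, Cd63 -0.076 to 0.083, Mcoln1 -0.0065 to 0.33, Gaa -0.27 to 0.051, Naglu -0.43 to 0.022, Neu1 -0.016 to 0.11, Ppt1 -0.10 to 0.025, Atp6v1h -0.053 to 0.030, Tfeb -0.46 to 0.18, Tfe3 -0.00021 to 0.34, Clta -0.047 to 0.013, Cltb -0.11 to 0.090, Ap2b1 -0.011 to 0.086, Ap2m1 -0.068 to 0.061, Dnm2 -0.10 to 0.083, Eea1 -0.031 to 0.16, Vps35 -0.0094 to 0.043, M6pr -0.12 to 0.15. None of these genes passed a test, and the cause was not tested. With 3 libraries a genotype, genes under 20 CPM had a median SE of 0.31, which limits what can be seen for Tfeb, Mitf, Ctsc and Ctsf.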

Other observations

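Of the 118 further lysosome and endocytosis genes tested, 24 had genotypes that did not overlap. They were 20 lower in Txnip-/- LSECs (16.9%, beside 8.94% of all genes), of which 4 were called, and 4 higher (3.39%, beside 8.43%), of which none was called. Higher in Txnip-/- LSECs were Bin1, a membrane-bending protein of endocytosis, at 88.9, 95.3 and 80.3 against 69.2, 66.9 and 61.0 CPM (log2 0.42, SE 0.11), Tcirg1, a membrane subunit of the proton pump, at 29.8, 28.4 and 26.5 against 18.9, 18.6 and 21.6 CPM (log2 0.52, SE 0.17), Pikfyve, a lipid kinase of endosomes, at 32.4, 35.6 and 28.7 against 24.5, 22.4 and 28.03 CPM (log2 0.37, SE 0.16), and Ctsk, cathepsin K, at 5.02, 3.67 and 7.06 against 0.973, 2.67 and 0.529 CPM. The 16 lower genes that were not called had log2 fold changes from -1.07 to -0.15. Among them were Arrb1, beta-arrestin 1, at 38.2, 34.9 and 44.4 against 60.1, 52.6 and 58.7 CPM (log2 -0.55, SE 0.14), and Slc11a1, the metal transporter of phagosomes, at 7.82, 4.79 and 6.84 against 14.2, 14.0 and 12.6 CPM (log2 -1.07, SE 0.27), and the other 14 were Sgsh (-0.58), Hgsnat (-0.38), Ctns, Abca1, Ap2s1, Gnptab, Eps15 (-0.30), Fcho2 (-0.26), Flcn, Gga2, Vps11, Atp6ap1, Ap1b1 and Scpep1. Their adjusted p by edgeR was 0.0776 (Bin1), 0.177 (Tcirg1), 0.392 (Pikfyve), 0.165 (Ctsk), 0.0549 (Arrb1) and 0.0577 (Slc11a1). The genes given with CPM values here were singled out after their values were seen.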
